A study of Penicillium oxalicum with 18 samples.

Results

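A group of 155 genes of the filamentous fungus Penicillium oxalicum is described, all of which were higher on a medium of bran and cellulose, called bran medium here, than on glucose in the wild type, and higher still on bran medium in strains that lack hap3 or hap5. The 155 were taken from 9241 genes with PDE locus tags, in a table of 9277 identifiers. The selection used mean FPKM (fragments scaled by gene length and by the number mapped in the library) over 3 libraries, with 1 added to each mean. A gene had to be at least 4 times higher on bran medium than on glucose in the wild type, which 978 genes were. It also had to be more than 2 times higher in each deletion strain than in the wild type on bran medium, which 175 of the 978 were. Of these, 20 belonged to a list of tags that the selection left out, 18 of them in 1 block of consecutive tag numbers. Membership, the wild type response to bran and the excess of the deletion strains on bran are therefore properties of the selection and are given as descriptions.

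The libraries came from 3 strains, namely wild type 114-2, a hap3 deletion strain (Dhap3) and a hap5 deletion strain (Dhap5). Each strain was precultured on 2% glucose for 24 h at 30 °C, and its mycelium then spent 24 h on either 2% glucose or a mixture of 1% bran and 1% microcrystalline cellulose. These 6 groups held 3 libraries each, 18 in all. The labels give neither the number of independent transformants behind a deletion strain nor a strain with the gene put back, and they do not say whether replicates were separate cultures, so a p-value reflects the spread between these libraries alone, and that spread may be technical.

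Hap3 and Hap5 are subunits of the Hap complex, a fungal member of the CCAAT-binding factors. In filamentous fungi the core complex is assembled from subunits related to Hap2, Hap3 and Hap5, which together bind CCAAT sequences in promoters and can act on a gene positively or negatively. Penicillium oxalicum secretes enzymes that break down plant cell walls, and bran and cellulose are materials on which such genes are typically switched on, whereas glucose keeps many of them low through carbon catabolite repression. The table gives tags alone, without names or descriptions, and a reference table for another strain of the species held 0 of the 9277 identifiers. The 155 genes are therefore named by locus tag, without a function, and no pathway is assigned to them.

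Library totals ran from 966280 to 1202683 FPKM, between 598 and 959 genes per library were listed at 0, and correlations between libraries of a group ran from 0.959 to 0.987. Sequencing depth is unknown. Because the deleted genes were not paired with tags, the deletions were not checked by name, but a search made with the values in view found 1 gene per deletion strain that every library of the strain held at least 4 times below every other library. These were PDE_02832, at 8.93 to 12.18 FPKM in the Dhap3 libraries, and PDE_01016, at 1.43 to 2.22 FPKM in the Dhap5 libraries. The protocols in the labels describe short tags next to CATG sites, whereas the values are scaled by gene length. Levels of different genes against each other are therefore uncertain, and ratios of a gene between libraries are not touched by length except through the constant of 1 FPKM. Replicate 2 of Dhap5 on glucose stood apart for these genes. It was the highest of its group for 95 of the 147 genes with a value there (64.6%), against 35.1% of the 8488 tested genes with a value there, and results that rest on it are given with and without it. In bulk RNA a gene expressed in fewer cells and a gene with less RNA per cell cannot be told apart.

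The summed level of the 155 genes is given per library as a description. The selection set its rise on bran medium in the wild type and its excess in the deletion strains there. It also used the wild type glucose libraries as the low side. On glucose the 3 wild type libraries gave the 155 genes 0.0581%, 0.0605% and 0.0765% of the FPKM total. The Dhap3 libraries lay at 0.432%, 0.441% and 0.519%, and the Dhap5 libraries at 0.605%, 0.729% and 1.00%. No deletion library on glucose overlapped the wild type, and none of the Dhap5 libraries overlapped Dhap3. The wild type on bran medium reached 1.04%, 1.09% and 1.29%, above all deletion libraries on glucose. On the same medium the Dhap3 libraries reached 6.10%, 6.39% and 6.43% and the Dhap5 libraries 5.61%, 5.80% and 5.95%. There the order of the deletion strains was turned around, with all Dhap3 libraries above all Dhap5 libraries.

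A single gene, PDE_02125, made up a large piece of the glucose share of Dhap5. It was picked with its values known, as the highest of the 155 on glucose in that strain, and stood at 27.84, 23.90 and 43.00 FPKM in the wild type on glucose, at 519.73, 642.07 and 610.70 FPKM in Dhap3 and at 1156.19, 3189.81 and 1763.99 FPKM in Dhap5. In Dhap5 these glucose levels were close to its levels on bran medium, which were 1776.71, 1913.98 and 1520.58 FPKM. Without it the 154 other genes took 0.382% to 0.465% of the total in Dhap3 and 0.493% to 0.695% in Dhap5 on glucose, still without overlap.

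**Figure D1:**
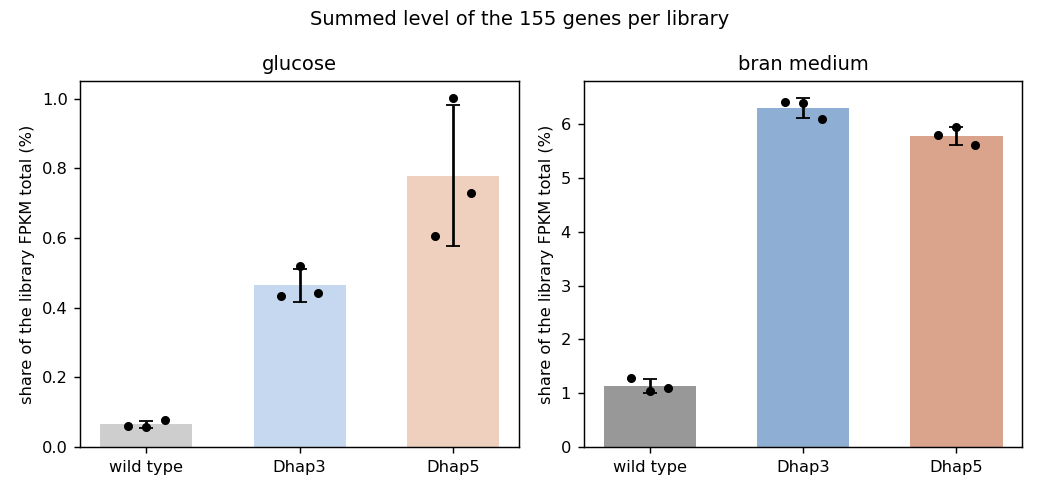
Share of each library's FPKM total taken by the 155 genes, in percent, on glucose (left) and on bran medium (right, another scale). Bars are means over 3 libraries, error bars are 1 SD and points are libraries. The deletion libraries lay above the wild type on both media, on bran medium by the selection. Dhap5 was highest on glucose and Dhap3 was highest on bran medium.

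In the middle of the group the pattern was the same. The median gene stood at 1.29 FPKM in the wild type on glucose, at 9.16 FPKM in Dhap3 and at 15.05 FPKM in Dhap5, where the medians of all 8681 tested genes were 25.1, 27.7 and 30.3 FPKM. On bran medium the median gene stood at 35.8 FPKM in the wild type, 185 FPKM in Dhap3 and 174 FPKM in Dhap5, and the medians of all tested genes were 32.6, 31.9 and 31.5 FPKM. The 155 genes thus went from well below the typical gene on wild type glucose to well above it in the deletion strains on bran. The typical gene stayed nearly level. The selection itself makes the rise of the 155 large. In the wild type on glucose 24 of the 155 were listed at 0 in all 3 libraries, and in each deletion strain on glucose 8 were. A level above 1000 FPKM on bran medium was reached by 1 of the 155 in the wild type and by 15 in each deletion strain, 14 of them in both.

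**Figure D2:**
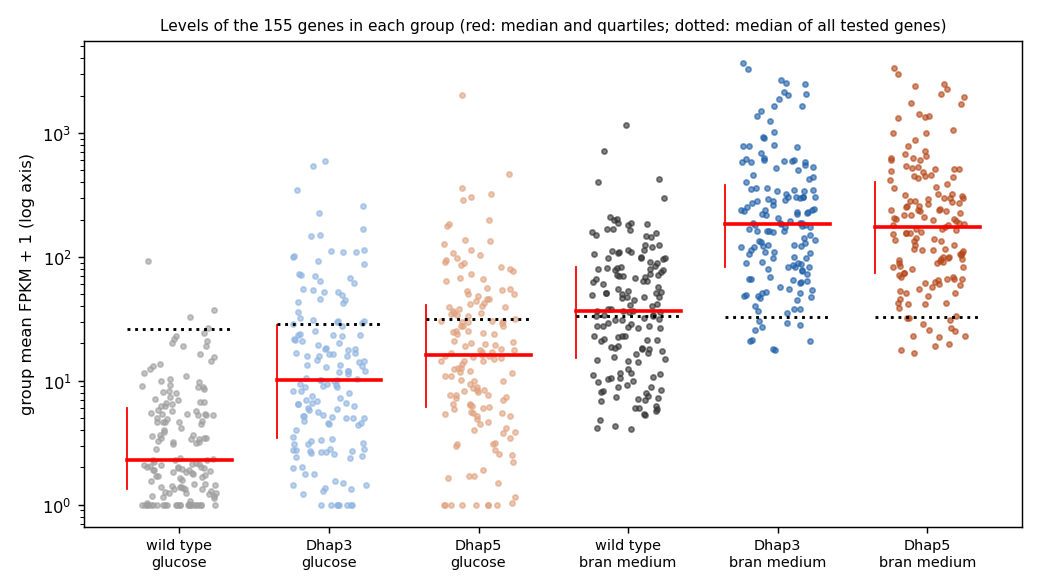
Group means of the 155 genes in FPKM + 1 on a log axis, 1 point per gene, with the median and quartiles in red and the median of all tested genes dotted. The median of the 155 lay below that of all tested genes in all 3 glucose groups and above it in all 3 bran medium groups.

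The values used by the selection spanned a wide range. With 1 added to the means, wild type levels on bran medium were 4 to 321 times those on glucose, with a median of 10.73. On bran medium Dhap3 was 2.13 to 114 times above the wild type, with a median of 4.56, and Dhap5 2.11 to 106 times, with a median of 4.32. In 16 genes the excess was over 10 times in both strains. For 152 of the 155 all 6 deletion libraries on bran medium lay above all 3 wild type libraries (36.5% of all tested genes). limma called 148 of the 155 higher in each deletion strain on that medium and 152 higher on bran in the wild type, against 16.7%, 16.4% and 23.2% of all tested genes, counts that the selection itself makes high.

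PDE_04495 was the most abundant of the 155 in the deletion strains on bran medium. It was measured at 3663.50, 3675.65 and 3585.39 FPKM in Dhap3 and at 3290.93, 3551.78 and 3189.40 FPKM in Dhap5, against 532.88, 302.66 and 375.98 FPKM in the wild type. PDE_01065 came next, at 3543.44, 3164.17 and 3075.35 FPKM in Dhap3 and 3073.97, 3157.97 and 2715.19 FPKM in Dhap5. Its wild type libraries on this medium lay at 167.44, 139.50 and 167.80 FPKM. In both genes the wild type libraries were far below all deletion libraries, and the deletion strains lay close to each other.

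The largest excess belonged to PDE_09419, a gene that was low in the wild type on either medium. It was listed at 0.52, 0 and 0.52 FPKM on glucose and at 11.48, 17.55 and 22.61 FPKM on bran medium in the wild type. Dhap3 on bran medium gave 2106.60, 2225.11 and 1912.85 FPKM and Dhap5 2187.87, 1860.29 and 1766.87 FPKM. PDE_03193 came next by the naming rule, which takes the smaller log2 change of both strains, and was listed at 0 in all 9 glucose libraries. On bran medium its wild type libraries were at 1.65, 7.57 and 0 FPKM, the Dhap3 libraries at 79.23, 71.82 and 65.58 FPKM and the Dhap5 libraries at 60.41, 78.94 and 58.17 FPKM. A 0 beside higher values in a group can be a failed estimate, so the wild type level of PDE_03193 is uncertain, and the 0 enlarges its log2 change. By the ratio of means its excess in Dhap5, 16.4 times, was below those of PDE_01065, PDE_01429 and PDE_01430, at 18.7, 17.9 and 16.8 times.

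At the edge of the selection the ratios of the genes just inside and just outside were close, while their levels were not. PDE_01991 just reached the required ratio of 4 between the media in the wild type, from a mean of 0.04 FPKM on glucose to 3.16 FPKM on bran medium. PDE_00016 just missed it with a ratio of 3.98, from 3.68 to 17.6 FPKM. PDE_01656 had the smallest excess that was kept, a ratio of 2.11 in Dhap5, with group means of 96.7 FPKM in the wild type, 263 FPKM in Dhap3 and 205 FPKM in Dhap5. PDE_08280 was left out at a ratio of 2.00, with means of 3.87, 10.6 and 8.73 FPKM. Because 1 is added to every mean, low genes need a larger ratio of FPKM to enter. With 0.1 in its place the same thresholds took 248 genes, all of the 155 among them.

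On glucose most of the 155 genes were also higher in the deletion strains, in libraries of the deletion strains that the selection had not used. In Dhap3 103 were higher than in the wild type (15.3% of all tested genes were), 1 was lower (8.74%) and 51 were not called. In Dhap5 122 were higher (17.6%), 0 were lower (7.00%) and 33 were not called, and at an unadjusted p under 0.05 1 of the 155 was lower (19.0% of all tested genes). In both strains 101 of the 155 were higher, against 13.0% of all tested genes; the comparisons share their wild type libraries, so one does not repeat the other. The wild type glucose libraries had been used by the selection as the low side, which favours low values there. These shares are therefore set below beside those of other bran induced genes, chosen by the same wild type ratio but not matched in level. Calls were made with limma on log2(FPKM + 1) at an adjusted p under 0.05 and a log2 change of at least 1 in size.

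The median log2 change on glucose was 1.67 in Dhap3 and 2.13 in Dhap5, against 0.14 and 0.24 over all tested genes. Leaving out the 24 and 25 genes listed at 0 throughout a compared group gave medians of 1.69 and 2.30. For 122 genes all 6 deletion libraries on glucose lay above all 3 wild type libraries (32.3% of all tested genes). Taken strain by strain, the 3 Dhap3 libraries lay above the wild type for 123 genes (36.5% of all tested genes) and the 3 Dhap5 libraries for 133 (47.6%). Median-of-ratios scaling lowered the median change of all tested genes by 0.130 and 0.223 in Dhap3 and Dhap5. Relative to that median the 155 genes were higher by 1.61 and 2.00 after scaling, and by 1.54 and 1.89 before it. With quantile normalization the same quantity was 1.26 and 1.63.

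**Figure D3:**
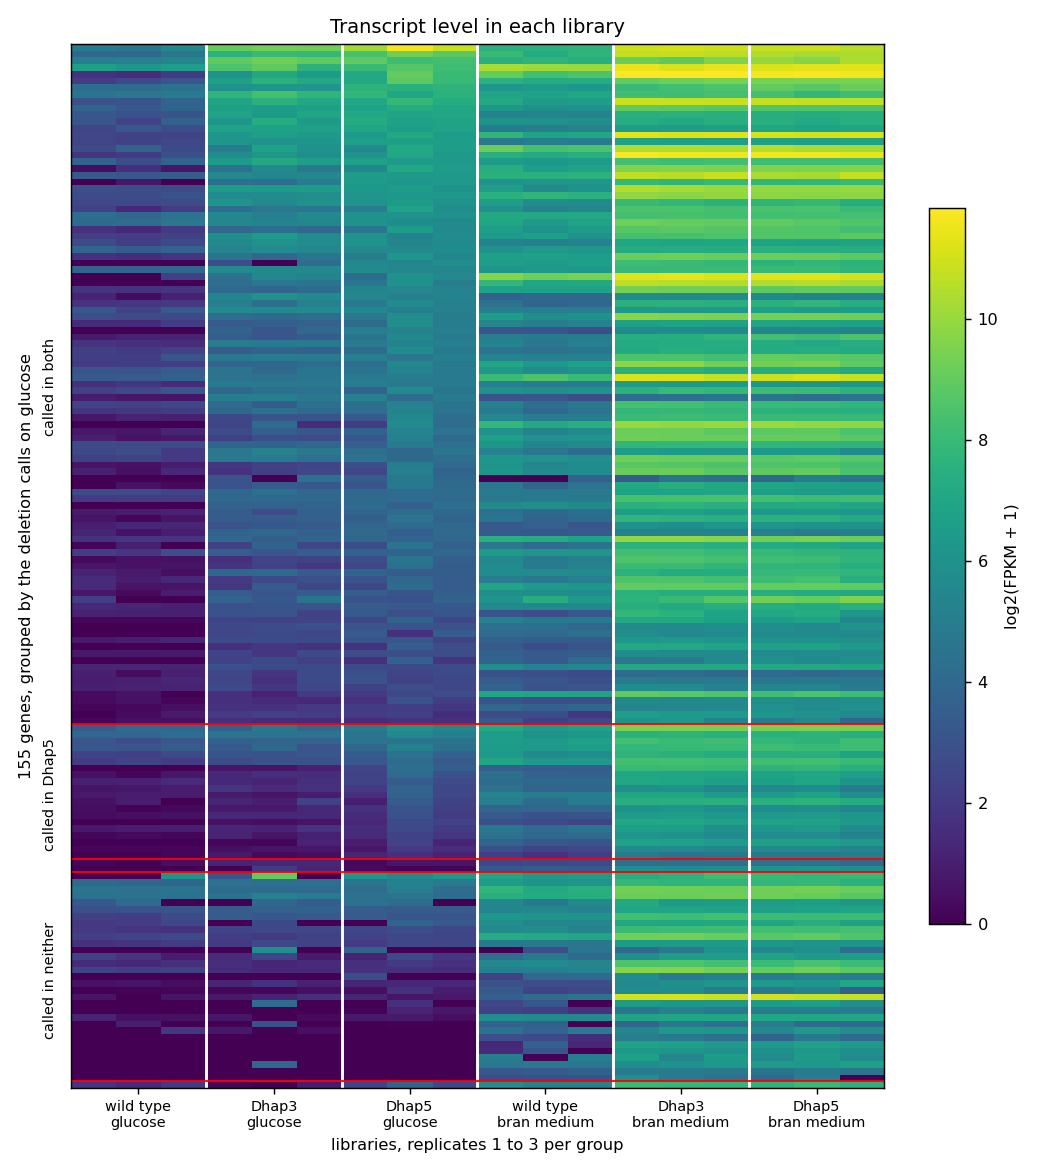
Level of each of the 155 genes (rows) in each of the 18 libraries (columns), as log2(FPKM + 1). Rows are grouped from top to bottom by the calls on glucose. First come 101 genes called higher in both deletions. Then come 20 higher in Dhap5 and not called in Dhap3, and 2 higher in Dhap3 and not called in Dhap5. Last are 31 called in neither and 1 called lower in Dhap3 and higher in Dhap5. The bran medium columns of the deletions are high in all of these groups.

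PDE_04495 and PDE_09452 rose most on glucose by the smaller of both changes. PDE_04495 was at 2.22, 1.88 and 3.32 FPKM in the wild type on glucose, at 67.10, 142.52 and 87.32 FPKM in Dhap3 and at 141.91, 512.88 and 259.79 FPKM in Dhap5. Its log2 changes were 4.80 (SE 0.36, adjusted p = 2.15e-08, limma) and 6.29 (SE 0.36, adjusted p = 9.15e-10, limma). PDE_09452 was at 0 in the 3 wild type glucose libraries, so no fold is given, and stood at 18.07, 26.22 and 23.09 FPKM in Dhap3 and 23.96, 67.85 and 31.79 FPKM in Dhap5. limma called it in both strains, with adjusted p = 3.04e-09 and 5.01e-10. In both genes every deletion library lay above every wild type library, and replicate 2 was the highest of Dhap5. Without that replicate the log2 change of PDE_04495 in Dhap5 was 5.82.

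The rise on glucose seldom reached the level seen on bran medium in the wild type. The glucose mean was at or above the wild type mean on bran medium for 24 genes in Dhap3, for 33 in Dhap5 and for 20 in both. The 101 genes that rose in both strains had median levels of 2.18 FPKM in the wild type, 15.6 FPKM in Dhap3 and 28.8 FPKM in Dhap5 on glucose, against 50.5 FPKM in the wild type on bran medium. The 20 genes called higher in Dhap5 and not called in Dhap3 had lower medians, at 0.583, 1.68 and 6.65 FPKM on glucose. Of the 20, 9 were called higher there in Dhap5 than in Dhap3.

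For 31 genes neither strain was called on glucose, although each was over 2 times the wild type on bran medium in both. Their medians on glucose were 0.683 FPKM in the wild type, 1.77 FPKM in Dhap3 and 1.96 FPKM in Dhap5, and on bran medium 20.7, 85.1 and 92.5 FPKM. In 6 of them all 9 glucose libraries were listed at 0. PDE_09419 was among the 31. Its glucose libraries were at 0.76, 1.30 and 2.07 FPKM in Dhap3 and 1.40, 0.60 and 0.76 FPKM in Dhap5, with log2 changes of 0.81 (adjusted p = 0.0102, limma) and 0.52 (adjusted p = 0.0836, limma), under the required size. All 155 genes passed the filter of at least 1 FPKM in at least 3 libraries, but 17 had fewer than 3 glucose libraries at 1 FPKM, and so had little room to be called between glucose groups.

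PDE_04403, named after its values were seen, was the only one of the 155 called lower on glucose, in Dhap3. It was at 2.45, 1.65 and 3.09 FPKM in the wild type, at 0.11, 0 and 0.94 FPKM in Dhap3 and at 4.26, 13.01 and 4.88 FPKM in Dhap5. The log2 changes were -1.37 (SE 0.32, adjusted p = 0.00184, limma) and 1.18 (SE 0.32, adjusted p = 0.00537, limma), opposite in sign, and the groups did not overlap. On bran medium it was high in both deletion strains, at 257.91, 234.16 and 220.15 FPKM and at 201.64, 253.71 and 192.95 FPKM, above the 55.51, 38.06 and 38.61 FPKM of the wild type.

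Other bran induced genes met the same wild type ratio between the media, and their glucose values are set beside those of the 155. Of 297 genes that changed by less than the 2-fold thresholds in both deletion strains on bran medium, 149 (50.2%) were higher on glucose in Dhap3 and 185 (62.3%) in Dhap5. Of 398 tested genes that were more than 2 times lower in both, 97 (24.4%) and 107 (26.9%) were higher. Among the 155 the shares were 66.5% and 78.7%. The median log2 changes on glucose in Dhap3 and Dhap5 were 1.67 and 2.13 for the 155, 1.11 and 1.30 for the intermediate genes and 0.25 and 0.37 for the lower ones. In the remaining 75 tested genes, which fitted none of these groups, the shares were 29.3% and 41.3%. The 155 thus had the largest shares of these 4 groups, but most of the intermediate genes also rose in Dhap5, so a rise on glucose did not belong to the 155 alone. These differences between groups of genes were not tested. The groups were also not matched in their wild type level on glucose, which was lowest for the 155, at a median of 1.29 FPKM. It was 4.48 FPKM for the intermediate genes, 5.52 FPKM for the lower ones and 3.27 FPKM for the remaining ones.

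The deletion strains were compared with each other on both media. On glucose 33 of the 155 were higher in Dhap5 than in Dhap3 (2.97% of all tested genes were) and 0 were lower (1.04%). At an unadjusted p under 0.05 71 were higher (23.2% of all tested genes) and 7 were lower (10.3%). The median log2 difference was 0.40, against 0.09 over all tested genes, and 119 differences were positive and 30 negative. Most of all tested genes were thus positive too. With median-of-ratios scaling the medians were 0.32 and 0.0002, and 114 of the 155 were positive. With quantile normalization they were 0.27 and -0.03, and 106 of the 155 were positive. Neither glucose group of the deletions had been used by the selection. All 3 Dhap5 libraries lay above all 3 Dhap3 libraries for 60 genes (21.6% of all tested genes), and the opposite held for 4 (9.73%). The count of 33 rested on the spread shared over all groups and on single libraries. It was 20 without replicate 2 of Dhap5, 50 without replicate 1, and 8 when the 6 libraries concerned were fitted alone with 138 of the 155 tested. Dhap5 was also called above Dhap3 for 27 of the 297 intermediate bran induced genes (9.09%). The same held for 18 of the 398 lower ones (4.52%) and 6 of the 75 remaining ones (8%), against 21.3% of the 155. In these 3 other groups Dhap5 was called below Dhap3 for 7, 11 and 1.

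PDE_01656 and PDE_01429 had the largest differences between the deletion strains on glucose that met the naming rule. PDE_01656 was listed at 5.67, 0 and 17.87 FPKM in Dhap3 and stood at 45.60, 42.42 and 54.91 FPKM in Dhap5, a log2 difference of 3.27 (SE 0.66, adjusted p = 0.00306, limma). The difference was 2.11 without replicate 2 of Dhap3 and 4.23 without replicate 3. With the 6 libraries fitted alone its adjusted p was 0.125, and its Dhap3 libraries mixed 0 with higher values. PDE_01429 was at 0.66, 0.53 and 1.13 FPKM in Dhap3 and at 4.53, 19.25 and 10.89 FPKM in Dhap5, a log2 difference of 2.65 (SE 0.30, adjusted p = 4.08e-05, limma). Without replicate 2 of Dhap5 the difference was 2.21. The wild type glucose libraries of both genes were listed at 0, and in both the Dhap5 libraries lay above the Dhap3 libraries without overlap. Of the 33 genes, 23 had been called higher than wild type on glucose in both strains. Another 9 had been called higher in Dhap5 and not called in Dhap3. The last, PDE_04403, had been called higher in Dhap5 and lower in Dhap3.

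The deletion groups on bran medium had both been used by the selection, each above the same wild type mean, which favours similar values in both, so their comparison is a description. On that medium 0 of the 155 were higher in Dhap5 than in Dhap3 (0.276% of all tested genes were) and 0 were lower (0.196%). At an unadjusted p under 0.05 by limma 9 were higher (6.47% of all tested genes) and 13 were lower (6.84%). The median log2 difference was -0.13, against -0.01 over all tested genes. All 3 Dhap3 libraries lay above all 3 Dhap5 libraries for 41 genes (14.4% of all tested genes), and the opposite held for 16 (13.0%). Without the required size of 1, PDE_05310 was higher by 0.73 (adjusted p = 0.00837, limma) and PDE_04453 lower, with a log2 difference of -0.34 (adjusted p = 0.0416, limma). Differences of at least 1 in size that did not pass the test were those of PDE_01229 at 1.15, PDE_03623 at -1.07 and PDE_09343 at -2.08, with adjusted p = 0.358, 0.158 and 0.273 by limma. These 5 genes were named after their values were seen.

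**Figure D4:**
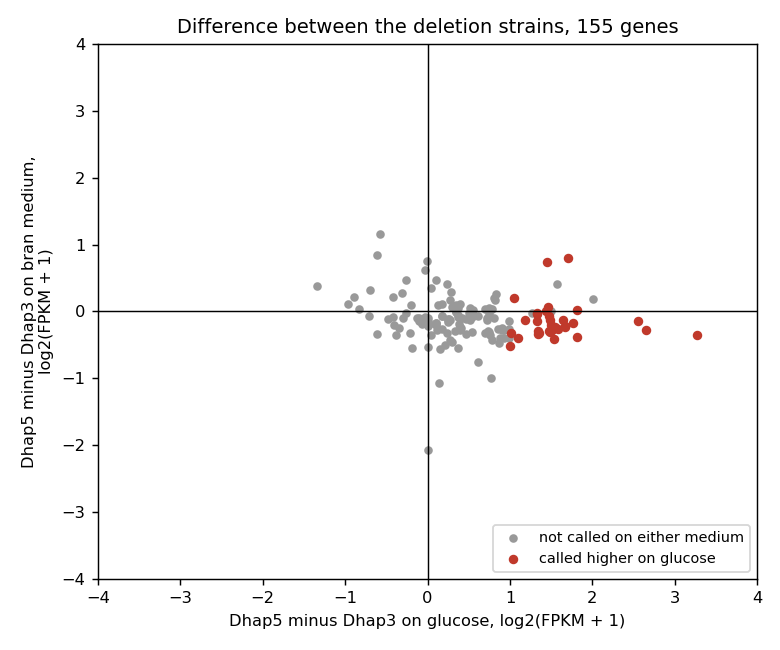
Difference between Dhap5 and Dhap3 on glucose (horizontal) and on bran medium (vertical) for the 155 genes, each as a difference in log2(FPKM + 1). Red points are the 33 genes called higher in Dhap5 on glucose; no gene was called on bran medium, where the median difference was -0.13.

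Bran and cellulose still raised nearly all of the 155 genes in the deletion strains. In Dhap3 143 were higher than on glucose (18.6% of all tested genes were) and 0 were lower (13.6%). In Dhap5 144 were higher (13.8%) and 0 were lower (11.1%), and 141 were higher in both (12.5%). By limma at an unadjusted p under 0.05, 1 gene was lower in Dhap3 (34.2% of all tested genes) and 0 in Dhap5 (36.6%). The bran libraries of the deletion strains had been used by the selection as the high side, so these counts are descriptive. The median log2 response was 3.40 in the wild type, 4.42 in Dhap3 and 3.62 in Dhap5, against 0.16, 0.05 and -0.07 over all tested genes.

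PDE_09419 and PDE_06621 had the largest responses by the smaller of both strains. PDE_06621 was lower in the deletion strains than in the wild type on glucose and higher on bran medium. It was at 4.16, 3.53 and 3.97 FPKM on glucose in the wild type, at 1.87, 1.48 and 1.59 FPKM in Dhap3 and at 2.25, 2.11 and 1.86 FPKM in Dhap5. On bran medium the wild type gave 33.76, 32.52 and 40.20 FPKM, Dhap3 832.11, 802.92 and 658.13 FPKM and Dhap5 531.13, 641.16 and 458.34 FPKM. All groups of the deletions were separated from the wild type without overlap, downward on glucose and upward on bran medium. The log2 differences on glucose were -0.89 and -0.67, under the required size, and the responses to bran medium were 8.17 (SE 0.13, adjusted p = 2.2e-16, limma) in Dhap3 and 7.46 (SE 0.13, adjusted p = 7.5e-16, limma) in Dhap5. PDE_09419 responded by 9.81 and 9.996 on the same scale.

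In 9 of the 155 neither deletion strain was called higher on bran medium than on glucose. Of all tested genes 18.6% were called higher in Dhap3, 13.8% in Dhap5 and 12.5% in both, so most were called higher in neither. Of the 9 genes, 8 had risen on glucose in both deletion strains, as had 65.2% of the 155, and a link between these was not tested. A missed call is not a lack of response. PDE_04328, with log2 responses of 3.68 (SE 1.75) and 1.86, had libraries that mixed 0 with higher values, and PDE_00199 and PDE_07706 passed the adjusted p in Dhap3 at 0.70 and 0.57 (adjusted p = 0.000103 and 2.08e-05, limma) and missed the required size. PDE_02963 and PDE_05656 had the smallest responses by the naming rule. In PDE_02963 the wild type was at 0.84, 0.65 and 0.59 FPKM on glucose and 7.22, 7.76 and 6.07 FPKM on bran medium. Dhap3 gave 30.37, 33.58 and 25.81 FPKM on glucose and 18.04, 18.83 and 22.97 FPKM on bran medium, and Dhap5 36.26, 17.30 and 27.13 FPKM and 23.08, 18.72 and 22.39 FPKM. All deletion libraries, whichever the medium, lay above the wild type on bran medium. The responses were -0.56 (SE 0.20, adjusted p = 0.0206, limma) in Dhap3 and -0.26 (SE 0.20, adjusted p = 0.267, limma) in Dhap5, both under the required size.

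PDE_05656 showed the same picture, with 1.28, 0.26 and 1.15 FPKM on glucose and 12.55, 14.41 and 14.35 FPKM on bran medium in the wild type. In Dhap3 it was at 40.79, 64.73 and 47.59 FPKM on glucose and at 50.96, 46.04 and 47.49 FPKM on bran medium, and in Dhap5 at 43.51, 34.77 and 40.15 FPKM and at 44.98, 39.75 and 37.23 FPKM. The libraries of both media overlapped in each deletion strain, with responses of -0.06 (SE 0.20, adjusted p = 0.813, limma) and 0.04 (SE 0.20, adjusted p = 0.868, limma). On glucose it was higher than the wild type by 4.80 and 4.46 (SE 0.20 each, adjusted p = 2.66e-11 and 5.06e-11, limma).

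The bran libraries of both deletion strains, which the selection used, also enter the difference of their responses, so it is described with no weight put on it. The response to bran medium was smaller in Dhap5 than in Dhap3 for 35 of the 155 (3.20% of all tested genes) and larger for 1 (1.50%). The 1 was PDE_01228, named after its values were seen, which was at 500.35, 619.14 and 488.88 FPKM on glucose and 558.29, 474.30 and 739.04 FPKM on bran medium in Dhap3. In Dhap5 it was at 480.70, 282.79 and 309.37 FPKM and at 994.89, 838.00 and 1344.28 FPKM, and the difference of responses was 1.45 (SE 0.30, adjusted p = 0.00563, limma). The count of 35 was 53 without replicate 1 of Dhap5 on glucose and 21 when the 4 deletion groups were fitted alone. Set against the wild type response, which the selection used, the response was larger in Dhap3 for 60 genes (12.9%) and smaller for 24 (17.2%), and in Dhap5 larger for 30 (10.9%) and smaller for 36 (19.4%). With quantile normalization these became 81 larger and 17 smaller in Dhap3 and 50 larger and 22 smaller in Dhap5. The balance in Dhap5 thus turned with the scaling, and the calls over all tested genes moved the same way. With that normalization 14.6% and 14.1% of all tested genes were called larger in Dhap3 and Dhap5. Of all calls in Dhap5, 48.7% were then larger, against 36.1% before.

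Many of the 155 genes carried neighbouring tag numbers. A gene of the group had the next or the previous tag number for 46 of the 155 (29.7%), against 224 of the 9086 PDE genes outside the group (2.47%). Allowing steps of at most 2 in tag number gave 16 runs with 51 of the genes, and 5 runs held 3 or more. The table gives no coordinates, so it was not tested whether neighbouring tags are neighbouring genes, or whether reads are shared between them. The longest run went from PDE_09999 to PDE_10010 and held 11 of its 12 tags, and the next went from PDE_01064 to PDE_01070 and held all 7 of its tags. The others were PDE_02138 to PDE_02141, PDE_03620 to PDE_03623 and PDE_04105 to PDE_04107.

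The 11 genes from PDE_09999 to PDE_10010 all met the selection, which set their shared order in the wild type and on bran medium. Only the glucose libraries of the deletion strains were not used by it. Their group means ran from 0.13 to 5.54 FPKM in the wild type, from 0.563 to 22.2 FPKM in Dhap3 and from 1.78 to 65.7 FPKM in Dhap5 on glucose. On bran medium they ran from 5.06 to 83.4 FPKM in the wild type, from 46.0 to 585 FPKM in Dhap3 and from 45.0 to 508 FPKM in Dhap5. On glucose 10 were higher than the wild type in Dhap3 (15.3% of all tested genes, 66.5% of the 155) and 11 in Dhap5 (17.6% and 78.7%). By limma Dhap5 was above Dhap3 on glucose for 8 of the 11 (2.97% of all tested genes, 21.3% of the 155). Without overlap of libraries it was above for 8 as well (21.6% and 38.7%). The 8 called by limma were 4 without replicate 2 of Dhap5, which was the highest of its group for all 11. They were 0 when the 6 libraries concerned were fitted alone.

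PDE_10000, the 1 tag inside this run that was not taken, missed the wild type ratio with 3.83, and its ratios in the deletion strains on bran medium were 3.68 and 3.61. The tags on either side differed. PDE_10011 stood at 6.28 FPKM in the wild type on bran medium and at 1.83 and 1.77 FPKM in Dhap3 and Dhap5, and PDE_10012 stood at 16.5, 2.27 and 2.84 FPKM. Both were lower in the deletion strains, where the 11 were higher. On the other side PDE_09998 was higher in the deletion strains on bran medium, at 4.94 and 4.65 FPKM against 0.117 FPKM in the wild type, and missed the wild type ratio with 1.12. The highest of the 11 on bran medium in the deletion strains, PDE_10009, was at 1.06, 0.48 and 0.71 FPKM in the wild type, at 3.67, 6.44 and 5.81 FPKM in Dhap3 and at 7.89, 35.98 and 15.30 FPKM in Dhap5 on glucose. On bran medium it was at 101.09, 62.20 and 71.37 FPKM in the wild type, 617.19, 589.88 and 547.42 FPKM in Dhap3 and 532.96, 534.14 and 455.68 FPKM in Dhap5. On both media all deletion libraries lay above the wild type; the Dhap5 libraries were the highest on glucose, and the Dhap5 and Dhap3 libraries did not overlap on bran medium, where Dhap3 was higher.

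**Figure D5:**
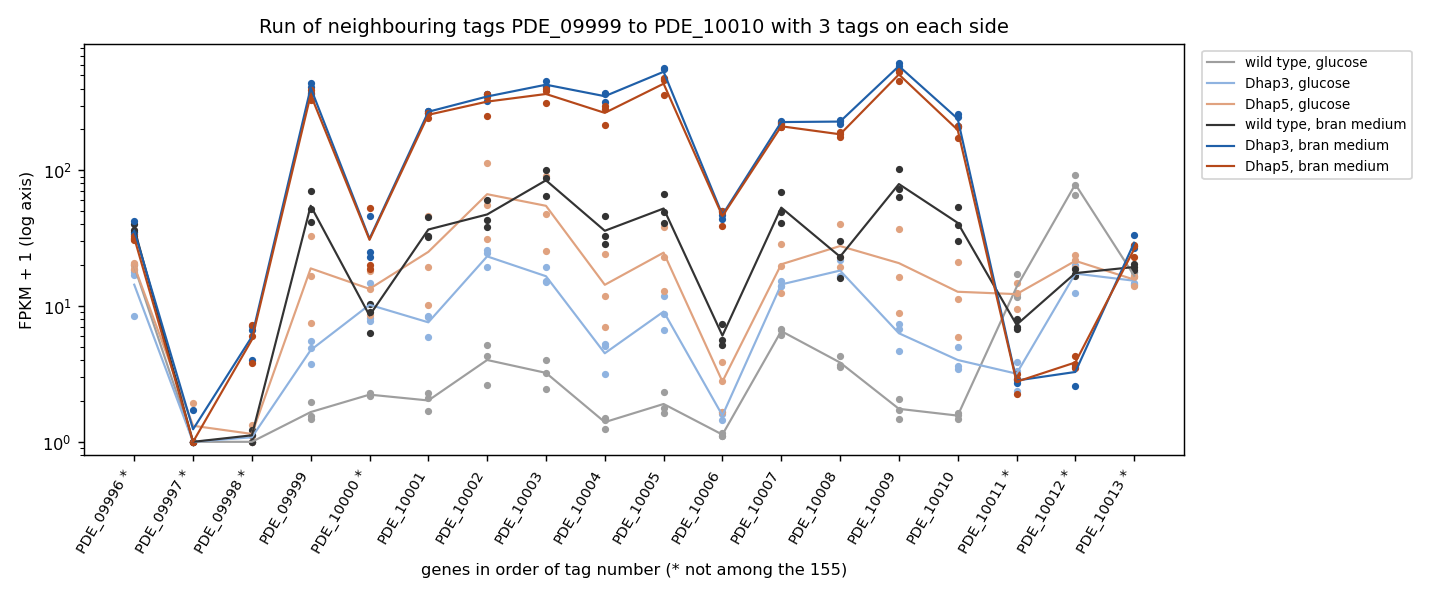
FPKM + 1 on a log axis for the run from PDE_09999 to PDE_10010 and 3 listed tags on each side, in order of tag number, with points for libraries and lines through group means. Tags marked with an asterisk are not among the 155; inside the run the deletion strains on bran medium are the highest groups, and at PDE_10011 and PDE_10012 they are the lowest.

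The run from PDE_01064 to PDE_01070 reached higher levels. Its 7 genes had means from 14.5 to 158 FPKM in the wild type on bran medium, from 122 to 3261 FPKM in Dhap3 and from 111 to 2982 FPKM in Dhap5, the top being PDE_01065. On glucose 5 were higher than the wild type in Dhap3 and 6 in Dhap5, and 2 were higher in Dhap5 than in Dhap3. The shares called in these comparisons were 15.3%, 17.6% and 2.97% of all tested genes, and 66.5%, 78.7% and 21.3% of the 155. Of the listed tags around this run, 3 exceeded the ratio required of the deletion strains and missed the ratio required of the wild type. PDE_01063, PDE_01071 and PDE_01073 had wild type ratios of 1.00, 3.50 and 2.73, and Dhap3 to wild type ratios of 9.93, 10.7 and 24.6 on bran medium. Their Dhap5 to wild type ratios were 7.55, 9.28 and 20.4. PDE_01061, with ratios of 0.556 and 0.561, and PDE_01072, with 1.03 and 1.05, missed both requirements. The 3 were low in the wild type on that medium, at 0.610, 2.78 and 1.88 FPKM, and at 14.99, 39.5 and 69.8 FPKM in Dhap3.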

How the data were processed

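Per the file headers, the values the authors deposited are FPKM, in 1 table. The sources used here do not give how reads were aligned, counted and assigned to strands, or the build and annotation behind the table, which leaves overlapping genes and near-identical copies uncertain. Strain, medium and replicate number in the headers tied each column to a sample. For bran medium the headers and the sample titles use different abbreviations, which were paired by elimination because only 2 media were used. All 18 columns entered the analysis, and 0 were left out.

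The deposited FPKM were taken to log2(FPKM + 1), a scale that understates changes of low genes. A gene was tested if 3 or more libraries had 1 FPKM or more, which held for 8681 of 9277. limma 3.58.1 (R 4.3.3) fitted the 6 group means to the 18 libraries together, with eBayes and an intensity trend, and Benjamini-Hochberg adjustment ran over all tested genes. Calls required an adjusted p under 0.05 and a log2 change of 1 or more in size. The fit was tested on simulated data. As depth is unknown, counting error has no interval here. Identical libraries were not found (0 pairs).

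The genes and lists were chosen with earlier results of these data known. Genes were named by level and by size of change on bran and cellulose, at the edges of the selection, by the largest changes on glucose, between the deletion strains and between media, and by the longest runs of tags. At most 2 higher and 2 lower genes were named per comparison, with a mean of at least 10 FPKM and replicates that did not overlap. The lack of overlap was not asked of the smallest responses to the medium. The alternatives changed the constant, the filter, the scaling (median-of-ratios, quantile), the minimum change, the libraries left out or the groups fitted, or added a replicate block. Of the reference table of strain HP7-1, with 9964 genes, 0 identifiers matched, so no sequence or coordinate is shown.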

Additional observations from a re-analysis of the deposited data

Results flagged for a closer look

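A test of the difference itself called the response to bran medium smaller in Dhap5 than in Dhap3 for 35 of the 155. It was called larger for 1. Of all tested genes 3.20% were called smaller and 1.50% larger. The count of 35 ran from 24 to 53 when 1 library was left out, and fell with the compared groups fitted alone. Among the named genes the difference in log2 response was -1.61 for PDE_04495, -3.63 for PDE_01656 and -2.93 for PDE_01429. The bran libraries in this contrast were used to select the genes, so these are descriptions.

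The response in a deletion strain also differed from that of the wild type in named genes, in a contrast that contains the values used to select them, so nothing is read from these. In Dhap3 the difference in log2 response was -1.59 for PDE_04495, 6.07 for PDE_09419, 4.69 for PDE_03193, 2.17 for PDE_01991 and -1.32 for PDE_09452. It was 3.62 for PDE_01429, 5.27 for PDE_06621, -2.80 for PDE_02963 and -3.06 for PDE_05656. In Dhap5 it was -3.20 for PDE_04495, 6.26 for PDE_09419, 4.55 for PDE_03193, 1.52 for PDE_01991 and -4.52 for PDE_01656. It was -2.17 for PDE_09452, 4.56 for PDE_06621, -2.50 for PDE_02963 and -2.96 for PDE_05656.

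Of the 36 identifiers without a PDE tag, 2 met the thresholds of the selection. XLOC_001152 was at 8.64, 3.54 and 5.36 FPKM in the wild type on bran medium and at 305.90, 317.78 and 341.03 FPKM in Dhap3, and its Dhap5 libraries were at 292.91, 236.98 and 274.39 FPKM. XLOC_001158 was at 17.86, 20.06 and 17.58 FPKM in the wild type, at 146.20, 145.30 and 115.52 FPKM in Dhap3 and at 122.05, 140.29 and 110.72 FPKM in Dhap5.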

How the results depend on the processing

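Of 430 recomputed counts and shares, 395 stayed close to the reported value (counts within 1.5 times, shares within 1 SD) and 35 moved; of 331 recomputed values of named genes and of counts over all tested genes or within the longest run, 304 kept direction and call or stayed close, 21 moved, 3 lost the call and 3 changed sign. The cause was not tested where none is given.

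On glucose, genes higher in Dhap3 and Dhap5 numbered 100 and 119 with median-of-ratios scaling, 85 and 105 with quantile normalization, and 98 to 105 and 117 to 124 when 1 library was left out. The 1 gene lower in Dhap3 became 3 with a pseudocount of 0.1 and 2 with either scaling or no minimum change (1 to 2 without a library); the 0 in Dhap5 became 1 with quantile normalization or no minimum change.

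Between the deletions on glucose the 33 higher genes were 56 with no minimum change, 8 with the compared groups fitted alone, 3 when that fit kept genes at 0 in those libraries (an alternative chosen after seeing the data), and 20 to 50 without a library; 0 lower became 1 with a pseudocount of 0.1, quantile normalization or no minimum change, and 0 to 1 without a library. On bran medium 0 higher and 0 lower became 1 each with no minimum change, and 0 to 1 higher without a library. With no minimum change 1 gene was lower on bran medium in Dhap3. The difference of responses fell from 35 lower genes to 21 with the compared groups fitted alone and 17 when that fit kept genes at 0, with 24 to 53 lower and 1 to 2 higher without a library. Against the wild type response, a pseudocount of 0.1 gave 35 higher in Dhap3 and 18 higher and 57 lower in Dhap5, and quantile normalization gave 50 and 22 in Dhap5. Of all tested genes 12.9% in Dhap3 and 11.1% in Dhap5 were higher with that pseudocount, and 14.1% in Dhap5 with quantile normalization.

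The selection took 248 genes with 0.1 added, 148 with median-of-ratios scaling, 122 with quantile normalization (117 of the 155) and 148 to 163 without a library or replicate number; 104 of the 155 were taken under every alternative. With quantile normalization the intermediate bran induced genes fell to 196 and the mixed ones to 50. Without the 10 most abundant genes of the table the 155 took 7.40% and 6.73% of the total in Dhap3 and Dhap5 on bran medium. The response of PDE_05656 ran from -0.20 to 0.12 in Dhap3 and from -0.043 to 0.11 in Dhap5 without a library, and changed sign without replicate 2 of Dhap3 on glucose, at 0.12, and without replicate 1 of Dhap5 on bran medium or replicate 2 on glucose, at -0.03 and -0.043.

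Replicate numbers did not pair the libraries: deviations of 45 same-numbered pairs correlated between -0.122 and 0.202, and 7 of 18 libraries correlated best with their own number. With a replicate block the counts on glucose were 103, 122 and 33, as without it. Limits are the unknown depth, 3 libraries per group, values at 0 that may be failed estimates, and the lack of names and coordinates.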
